A study of Mus musculus with 22 samples.

Results

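Dcpp1, Dcpp2 and Dcpp3 are 3 neighbouring mouse genes on chromosome 17, and their levels are described here in 22 RNA-seq libraries of oocytes and early embryos. They are 3 of the 22592 gene symbols in the deposited expression tables. They were chosen because loss of Setd2 went with higher values in growing oocytes of postnatal day 7 (P7) and in full-grown oocytes, so the contrasts of those stages are described without a test. The full-grown values of Dcpp3 went the other way.

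The Dcpp genes encode demilune cell and parotid proteins, small secreted proteins of the salivary glands with a lectin fold related to jacalin. In mice they are also made by the oviduct, where Dcpp1 has been described as a secreted factor that favours growth of the early embryo. Setd2 encodes a histone methyltransferase that marks the bodies of transcribed genes, and Dnmt3l encodes a cofactor of DNA methylation in oocytes.

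The libraries were made by the Smart-seq2 protocol from 5 stages of a Setd2 knockout (KO) and from 1 stage of a Dnmt3l KO. P7 oocytes of 20 to 30 µm came from Setd2-/- and Setd2+/- females, so these controls carry 1 null allele. All other groups came from females aged 8 weeks that were given PMSG and, for embryos, hCG. Full-grown oocytes were collected 48 h after PMSG and are labelled Setd2 KO and Setd2 control. Zygotes of mothers lacking Setd2 and of control mothers were taken 30 h after hCG. Embryos labelled 48 h were at the 1-cell stage in the KO and at the 2-cell stage in controls, so stage and genotype cannot be told apart there. 8-cell embryos made by spindle transfer and sperm injection, after 5 IU of each hormone, are labelled Setd2-/- and Setd2+/-, and the labels do not say whether the genotype is that of the donor of the spindle or of the recipient oocyte. Each of these groups had 2 libraries. Full-grown oocytes labelled Dnmt3l KO and Dnmt3l control had 1 library each, whose columns are named as merged. The Cre driver or other means of deletion is not given in the sources used here, and neither is whether libraries came from separate animals, so p-values cover the spread between libraries alone.

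Values are FPKM, fragments per kilobase of transcript per M mapped fragments (M for mega), as deposited. Depth was estimated from the most common low value of FPKM times transcript length, taken as 1 fragment. It was 5.1 to 5.86 M fragments at P7, 8.88 to 21.9 M in full-grown Setd2 oocytes and 2.93 to 3.36 M in zygotes. At 48 h it was 3.14 to 4.76 M, and in spindle-transfer embryos 5.86 to 7.73 M. The library under the Dnmt3l KO label had 9.51 M and its control 7.73 M. Setd2 itself was at 0.968 and 0.926 FPKM in KO full-grown oocytes and at 4.75 and 4.35 FPKM in controls. In zygotes it was at 1.3 and 1.73 FPKM in the KO, against 12.1 and 8.85 FPKM in controls, and at 48 h at 1.42 and 1.74 FPKM in the KO, against 53.2 and 43.0 FPKM in controls. In P7 oocytes it was at 3.67 and 3.21 FPKM in the KO, against 4.33 and 6.68 FPKM in controls, a difference that did not pass (limma adjusted p = 0.799). In spindle-transfer embryos the groups overlapped, at 15.4 and 18.1 FPKM under the KO label and 18.2 and 17.1 FPKM in controls. Summed FPKM of 18 oocyte markers, zona pellucida genes among them, was 5273 to 6533 in KO and 6087 to 7028 in control P7 oocytes, and 21570 to 25770 in KO and 27610 to 28190 in control full-grown oocytes.

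The members are nearly the same in sequence, which bears on every value below. In the GENCODE vM21 annotation of GRCm38 the coding sequences are 513, 513 and 510 nt long for Dcpp1, Dcpp2 and Dcpp3. Over 513 aligned positions Dcpp1 and Dcpp2 shared 93.8%, Dcpp1 and Dcpp3 93.2%, and Dcpp2 and Dcpp3 95.3%. Dcpp3 alone differed from both others at 13 positions, Dcpp2 alone at 10 and Dcpp1 alone at 21. Of all windows of 50 bases in a transcript, 46.5% of those of Dcpp1, 30.6% of those of Dcpp2 and 36.5% of those of Dcpp3 were found unchanged in another member. Reads from such windows can be given to either gene, and how the authors placed them is not given in the sources used here, so the split between members is uncertain and the sum over the members is given beside it. Coding positions 108 to 167 show how few bases tell Dcpp3 apart, with capitals at the 4 positions where it differs from both others. This window of 60 bases was chosen because no other held more such positions.
Dcpp1: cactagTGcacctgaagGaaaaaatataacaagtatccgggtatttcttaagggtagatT
Dcpp2: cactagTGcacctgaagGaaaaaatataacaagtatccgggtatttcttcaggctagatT
Dcpp3: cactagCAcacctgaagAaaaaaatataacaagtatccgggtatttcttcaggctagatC

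The 250 bases before each transcription start, from RefSeq on GRCm38.p6, were also near copies, and they are shown because the levels of these genes nevertheless parted in several groups. The FPKM values were made on mm9, so these coordinates apply to the sequences alone. All 3 lie on the plus strand, Dcpp1 at chr17:23880626-23880875, Dcpp2 at chr17:23898472-23898721 and Dcpp3 at chr17:23917208-23917457. Capitals mark the 14 positions of each sequence that are not the same in all members, including ends with no counterpart.
Dcpp1: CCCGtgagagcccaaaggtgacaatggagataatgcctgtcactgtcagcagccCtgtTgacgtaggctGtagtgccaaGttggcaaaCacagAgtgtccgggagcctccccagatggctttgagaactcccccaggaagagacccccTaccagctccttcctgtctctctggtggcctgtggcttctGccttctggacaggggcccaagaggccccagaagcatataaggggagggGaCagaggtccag
Dcpp2: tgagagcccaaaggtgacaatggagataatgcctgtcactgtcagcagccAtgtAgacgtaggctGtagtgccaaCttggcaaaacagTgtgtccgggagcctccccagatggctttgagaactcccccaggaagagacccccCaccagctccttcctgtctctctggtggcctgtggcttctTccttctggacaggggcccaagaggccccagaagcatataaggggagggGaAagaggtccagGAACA
Dcpp3: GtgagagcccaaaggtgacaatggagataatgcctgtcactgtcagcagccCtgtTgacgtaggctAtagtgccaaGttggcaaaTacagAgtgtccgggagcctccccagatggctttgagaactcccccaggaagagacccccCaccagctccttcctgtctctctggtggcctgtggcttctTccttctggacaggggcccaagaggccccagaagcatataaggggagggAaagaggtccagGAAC
The promoters of Dcpp1 and Dcpp2 shared 93.3% of aligned positions, those of Dcpp1 and Dcpp3 94.9%, and those of Dcpp2 and Dcpp3 96.0%. Searched on both strands, CANNTG, the E-box that bHLH factors bind, occurred once in each promoter, and 66.0% of 27025 mouse promoters in a window of this length hold it. The exact letters TATAAA were in none of the 3 windows and in 13.0% of all promoters. Each window holds the near form TATAAG close to its end, whose share over all promoters was not counted. CCAAT was likewise in none of the 3 and in 34.5% of all promoters. The homeodomain letters TAATTA and TAATTG, held by 4.9% and 7.34% of promoters, and CACCTG, a form of CANNTG held by 17.1%, did not occur in these windows. CG dinucleotides numbered 3 in Dcpp1, 2 in Dcpp2 and 2 in Dcpp3, against a median of 6 over all promoters.

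In P7 oocytes all 3 members were higher in the KO. Dcpp1 was at 29.3 and 27.7 FPKM in KO oocytes, against 1.66 and 0.406 FPKM in controls. Dcpp2 was at 50.7 and 43.6 FPKM in KO oocytes, against 8.2 and 7.01 FPKM in controls. Dcpp3 was at 9.69 and 8.12 FPKM in KO oocytes, against 4.95 and 2.89 FPKM in controls. No library of 1 genotype overlapped the other for any member, as was the case, with KO above control, for 15.9% of the 10794 genes tested at P7. The difference of means on the log2(FPKM + 1) scale was 3.93 for Dcpp1, 2.48 for Dcpp2 and 1.04 for Dcpp3, beside a median of -0.042 over all genes. Since the members were chosen on this contrast, these values describe the choice. A difference of this kind in bulk RNA does not tell more expressing cells from more RNA in each cell.

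The summed Dcpp level was 89.7 and 79.4 FPKM in KO P7 oocytes, against 14.8 and 10.3 FPKM in controls. The KO sums stood at percentiles 89.7 and 87.4 of the genes with at least 1 FPKM in the same library, and the control sums at percentiles 55.6 and 46.5. Dcpp2 was the largest member in all 4 P7 libraries. The share of Dcpp3 in the sum was 10.8% and 10.2% in KO oocytes, and 33.4% and 28.1% in controls.

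In full-grown oocytes the members parted: Dcpp1 and Dcpp2 were higher in the KO and Dcpp3 was lower. Dcpp1 was at 24.3 and 20.1 FPKM in KO oocytes, against 0.153 and 0.167 FPKM in controls. Dcpp2 was at 23.8 and 15.8 FPKM in KO oocytes, against 0.725 and 0.679 FPKM in controls. The control values of Dcpp1 correspond to about 2.06 and 0.915 fragments in those libraries, so the difference is of a gene near 0. Dcpp3 was at 8.09 and 9.99 FPKM in KO oocytes, against 31.9 and 14.5 FPKM in controls. The genotypes did not overlap for any member, and over the 12199 genes tested both KO libraries lay above both controls for 18.8% and below both for 46.3%. The log2 difference was 4.32 for Dcpp1, 3.59 for Dcpp2 and -1.18 for Dcpp3. The median of all genes there was -0.19, and relative to it the differences were 4.50, 3.77 and -0.99.

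The sum was 56.2 and 45.9 FPKM in KO full-grown oocytes and 32.8 and 15.3 FPKM in controls, a smaller contrast than that of Dcpp1 or Dcpp2 alone. Dcpp3 made up 14.4% and 21.7% of the sum in KO oocytes and 97.3% and 94.5% in controls. In the controls nearly all Dcpp signal was thus in the Dcpp3 row, and in the KO most was in the rows of Dcpp1 and Dcpp2.

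The pair of full-grown libraries of the Dnmt3l series had a makeup like that of the Setd2 controls. Dcpp3 was at 37.2 FPKM in the library labelled Dnmt3l KO, against 32.3 FPKM in its control, or 86.7% and 93.2% of the sum. Dcpp1 was at 2.93 FPKM in the library labelled KO, against 1.11 FPKM in the control, a ratio of 2.64. Dcpp2 was at 2.75 FPKM in the library labelled KO, against 1.26 FPKM in the control, a ratio of 2.19, and the ratio for Dcpp3 was 1.15. Of the 9708 genes whose higher library reached 1 FPKM, 3.09% were at least 2-fold higher under the KO label, which takes in Dcpp1 and Dcpp2 but not Dcpp3. Dnmt3l itself was at 25.0 FPKM in the library labelled KO, against 31.7 FPKM in the control. With 1 library on each side there is no replicate error and no test.

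**Figure D1:**
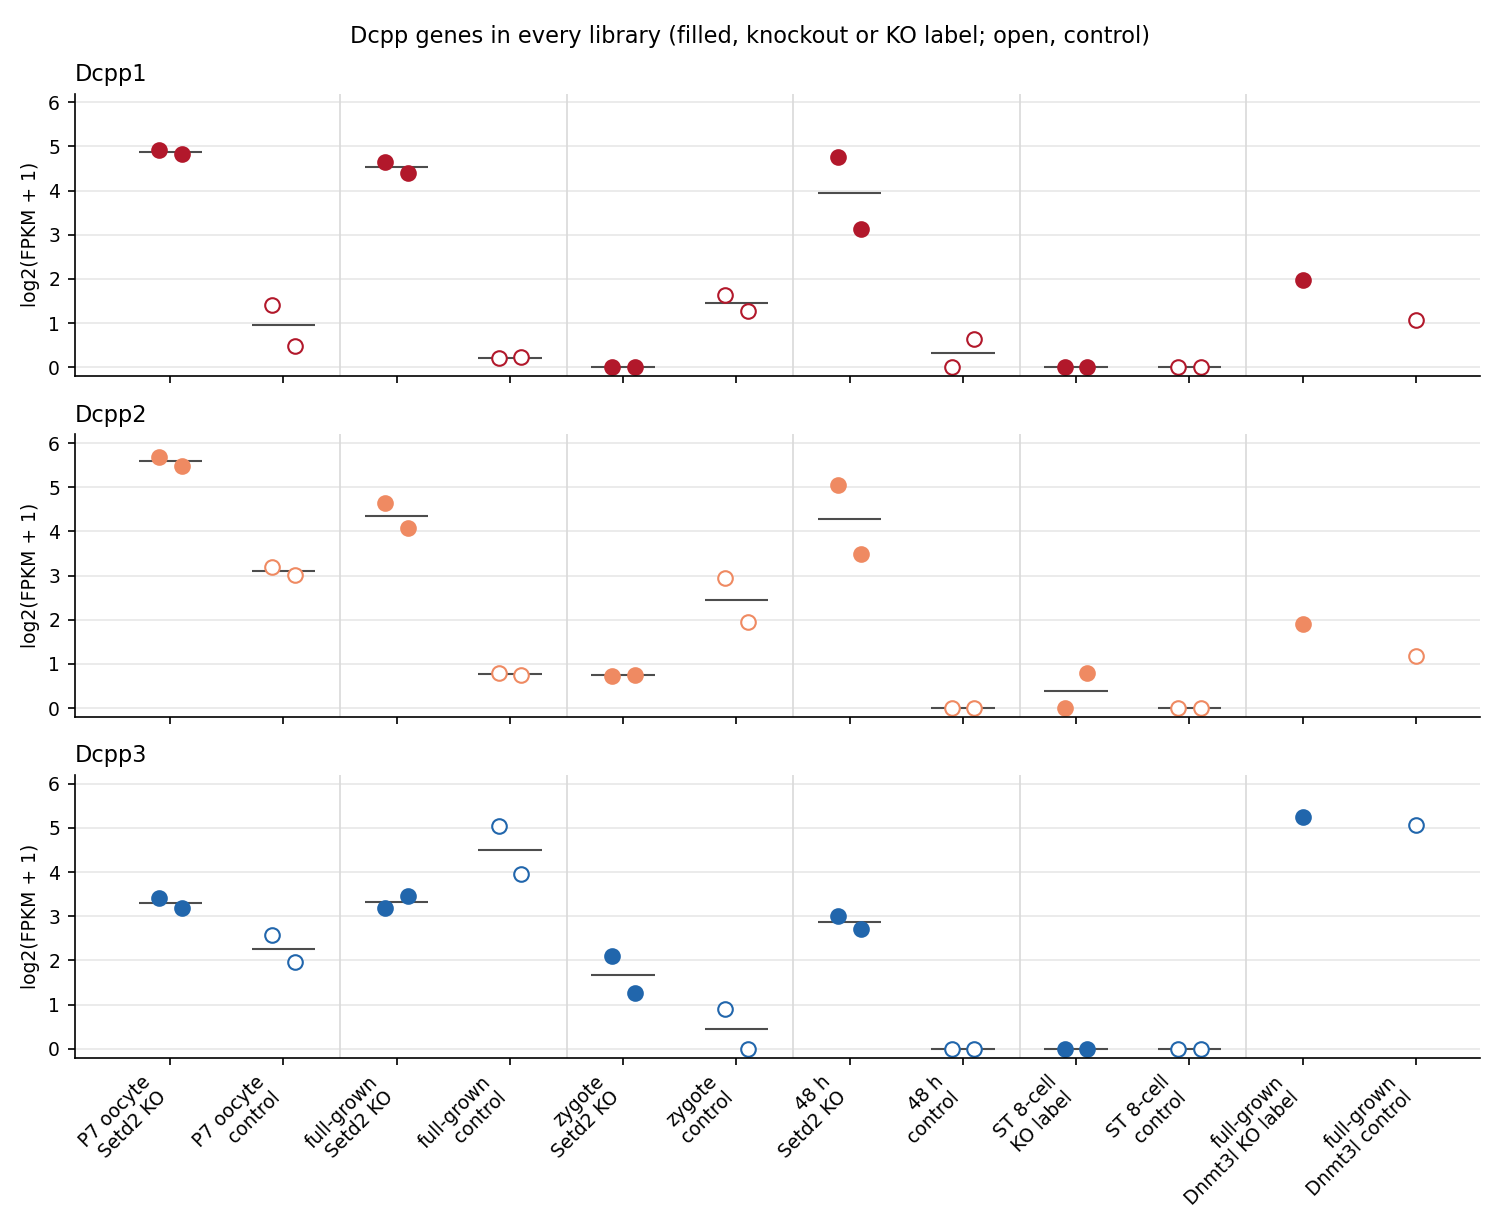
Level of Dcpp1, Dcpp2 and Dcpp3 as log2(FPKM + 1) in each of the 22 libraries, by group, with filled points for KO or KO-labelled libraries and open points for controls. Dcpp1 and Dcpp2 are high in KO P7 oocytes, KO full-grown oocytes and KO embryos at 48 h, while Dcpp3 is highest in control full-grown oocytes and the Dnmt3l pair, and the spindle-transfer embryos are at or near 0.

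In zygotes Dcpp1 and Dcpp2 were lower in the KO and Dcpp3 was higher, at low levels throughout. Dcpp1 was listed at 0 in both KO libraries, against 2.11 and 1.4 FPKM in controls. Dcpp2 was at 0.651 and 0.69 FPKM in KO zygotes, against 6.64 and 2.85 FPKM in controls. Dcpp3 was at 3.26 and 1.38 FPKM in KO zygotes, against 0.859 and 0 FPKM in controls. The groups did not overlap for any member. Over all genes tested, both KO zygote libraries lay above both controls for 32.7% and below both for 28%. By the depth estimate these values rest on between 0 and 13.2 fragments a library, so a single library can decide a member's value.

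The zygote contrast was not used to choose the members, and limma called all 3. Dcpp1 fell by 1.45 on the log2(FPKM + 1) scale in the KO (SE 0.439, limma adjusted p = 0.028), a value that depends on the added 1 FPKM because the KO is listed at 0. Dcpp2 fell by 1.70 (SE 0.468, limma adjusted p = 0.0187). Dcpp3 rose by 1.23 (SE 0.42, limma adjusted p = 0.046). In this contrast 13.1% of the 12199 genes were called lower and 18.5% higher, and Dcpp2 and Dcpp1 ranked 162nd and 331st from the bottom. After quantile normalization the split of calls was 1968 higher and 2233 lower, in place of 2255 higher and 1595 lower, and the members kept their directions.

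These zygote calls were not stable to the loss of a library. Dropping any of the 4 zygote libraries ended the Dcpp1 call, with changes from -1.64 to -1.27 and limma adjusted p from 0.0572 to 0.133. That of Dcpp2 was lost without control replicate 1 (-1.20), KO replicate 1 (-1.68) or KO replicate 2 (-1.72). That of Dcpp3 was lost without control replicate 2 (0.78) or KO replicate 1 (0.81), and also after median-ratio rescaling (1.15) and quantile normalization (1.11). Without control replicate 1 limma called 2489 genes, and without KO replicate 2 it called 2256, against 3850 with all libraries.

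The sum of the members was 3.91 and 2.07 FPKM in KO zygotes and 9.61 and 4.25 FPKM in controls. Dcpp3 made up 83.4% and 66.7% of it in the KO, against 8.94% and 0% in controls. The makeup of the KO zygotes was therefore mostly Dcpp3, unlike that of KO full-grown oocytes, and that of control zygotes mostly Dcpp2, unlike that of control full-grown oocytes.

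In another pair of close paralogs, Amd1 and Amd2, which encode S-adenosylmethionine decarboxylase, the row with the higher value differed between libraries. This pair was chosen after its values were seen. Amd1 was at 47.5 and 9.39 FPKM and Amd2 at 12.5 and 48.4 FPKM in the KO replicates 1 and 2 of full-grown oocytes. In KO zygotes Amd1 was at 0.124 and 0.164 FPKM and Amd2 at 73.6 and 52.9 FPKM. In control zygotes Amd1 was at 0.36 and 0.186 FPKM and Amd2 at 56.1 and 49.3 FPKM, so Amd1 was low in both genotypes there. How reads were placed between close copies, and the part of this in the Amd and Dcpp values, was not tested.

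**Figure D2:**
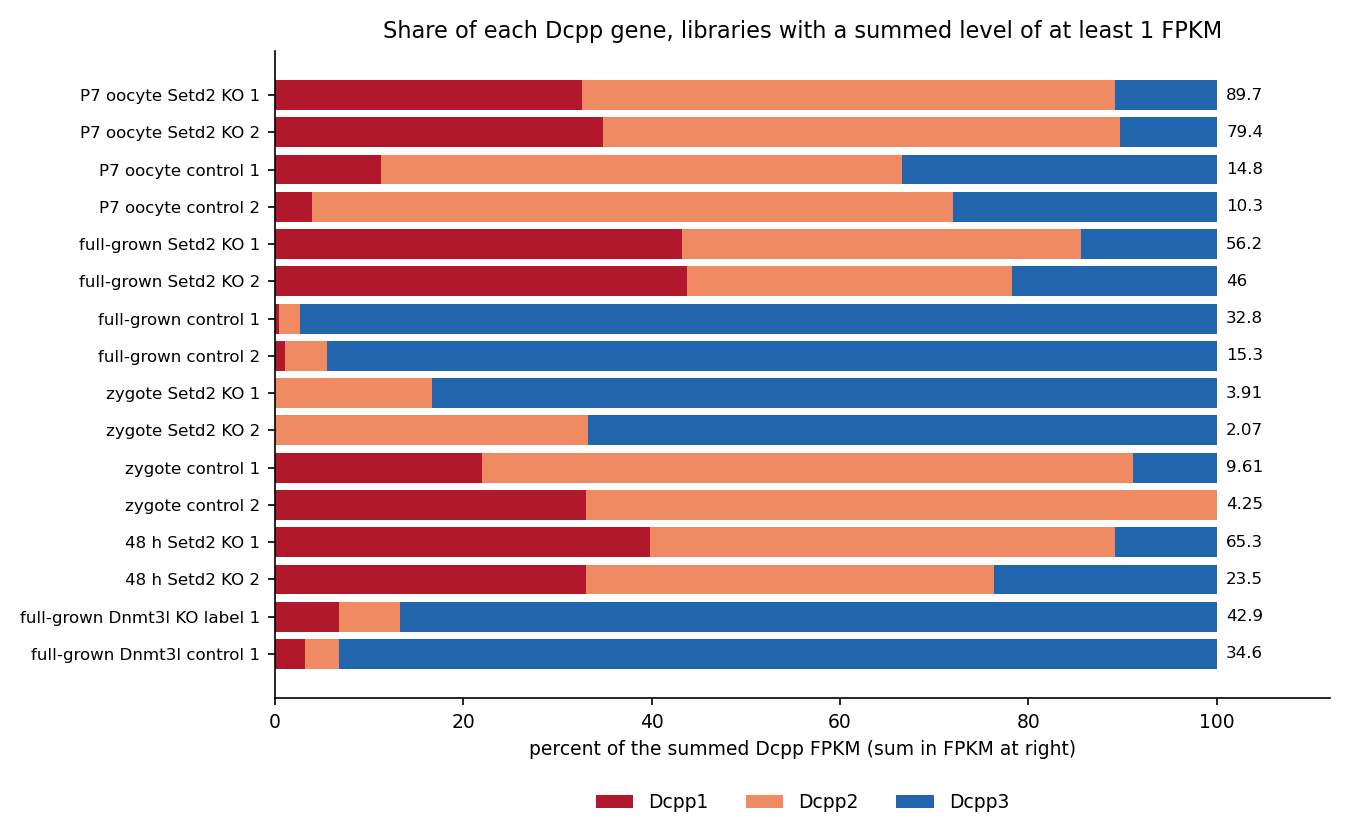
Share of each Dcpp gene in the summed Dcpp FPKM, in percent, for each library with enough summed signal, with the sum in FPKM at the right end of each bar. Dcpp3 fills 97.3% and 94.5% of the bar in control full-grown oocytes but 14.4% and 21.7% in KO ones, and 83.4% and 66.7% in KO zygotes but at most 8.94% in control zygotes.

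At 48 h all 3 members were present in the 1-cell KO embryos and near 0 in the 2-cell controls. Dcpp1 was at 26.0 and 7.74 FPKM in KO embryos, against 0 and 0.571 FPKM in controls. Dcpp2 was at 32.3 and 10.2 FPKM in KO embryos and listed at 0 in both controls. Dcpp3 was at 7.03 and 5.56 FPKM in KO embryos and listed at 0 in both controls. KO replicate 1 held more of each member than KO replicate 2, and both stood above every control, as they did for 51.3% of all genes tested.

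Dcpp1 rose by 3.62 in the KO at 48 h (SE 0.439, limma adjusted p = 1.99e-05), Dcpp2 by 4.27 (SE 0.468, limma adjusted p = 8.83e-06) and Dcpp3 by 2.86 (SE 0.42, limma adjusted p = 8.83e-05). The median of all genes was 0.43 in this contrast, and relative to it the changes were 3.19, 3.84 and 2.43. With controls listed at 0, the size of these changes depends on the added 1 FPKM. Of the 12199 genes 43.2% were called higher and 30.6% lower, so a call here is common. By size, Dcpp2 ranked 319th, Dcpp1 583rd and Dcpp3 1151st. Of the oocyte markers, 17 of 17 tested were also called higher in the KO, with a median of 5.58. Their summed FPKM was 18810 to 22310 in KO embryos, against 325 to 355 in controls. Stage moved with genotype, and its part in the Dcpp values was not tested. All 3 calls held under each of the 13 alternatives run for each.

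Between the zygote and 48 h the KO embryos gained Dcpp1 and Dcpp2, the 3rd and 4th largest rises of all genes tested. Dcpp1 rose by 3.94 at 48 h relative to the zygote in the KO (SE 0.439, limma adjusted p = 0.00534). Dcpp2 rose by 3.53 (SE 0.468, limma adjusted p = 0.0175). Dcpp3 was 1.19 higher and did not pass (SE 0.42, limma adjusted p = 0.369). This contrast called few genes: 17 higher, 0.139% of the 12199 tested, and 8 lower, or 0.0656%. The KO sum was 65.3 and 23.5 FPKM at 48 h, against 3.91 and 2.07 FPKM in zygotes.

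The largest rise in the same contrast was that of Amd1, by 5.31, and Amd2 fell by 5.41, the largest fall, so a pair of close paralogs stands at both ends of the ranking. Scimp, ranked 2nd, rose by 4.04. In the KO it was at 41.3 and 43.6 FPKM in full-grown oocytes, 1.25 and 0.661 FPKM in zygotes and 35.1 and 27.0 FPKM at 48 h. In controls it was at 7.75 and 15.2 FPKM, 0.616 and 0.682 FPKM and 1.95 and 0.278 FPKM. The number of calls moved with single libraries, from 25 to 11 without KO zygote replicate 1, to 172 without KO zygote replicate 2 and to 43 without KO replicate 2 of 48 h. Without KO zygote replicate 1 the Dcpp2 call was lost (3.51, limma adjusted p = 0.096), and with the 2 compared groups fitted alone neither gene passed (limma adjusted p = 0.0765 for Dcpp1 and 0.122 for Dcpp2).

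Control embryos lost the little Dcpp RNA that zygotes held. Dcpp2 fell by 2.44 at 48 h relative to the control zygote (SE 0.468, limma adjusted p = 0.000574) and Dcpp1 fell by 1.13 (SE 0.439, limma adjusted p = 0.0356). Dcpp3 was at -0.45 and did not pass (SE 0.42, limma adjusted p = 0.349). In that contrast 42.7% of the genes were called lower and the median was -0.34, and relative to it the changes were -2.10 for Dcpp2, -0.79 for Dcpp1 and -0.11 for Dcpp3. The Dcpp1 call was lost without control zygote replicate 1 (-0.94), control zygote replicate 2 (-1.31) or control replicate 1 of 48 h (-0.80), and under both rescalings (-0.99 and -1.02).

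The KO effect at 48 h differed from that in zygotes for each member, which is the same test as the difference between the genotypes in the step to 48 h. The difference was 5.07 for Dcpp1 (SE 0.621, limma adjusted p = 3.6e-05), 5.97 for Dcpp2 (SE 0.661, limma adjusted p = 1.73e-05) and 1.63 for Dcpp3 (SE 0.594, limma adjusted p = 0.0304). Here 36.7% of genes were called higher and the median was 0.36, and relative to it the differences were 4.70, 5.61 and 1.27. Dcpp2 ranked 30th and Dcpp1 108th of 12199 genes, while Dcpp3 ranked 3084th. The Dcpp3 call was lost in 5 of the fits that left out a library, with values of 1.19 without control zygote replicate 1, 1.22 without KO zygote replicate 2, 1.63 without either control of 48 h and 1.49 without KO replicate 1 of 48 h.

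**Figure D3:**
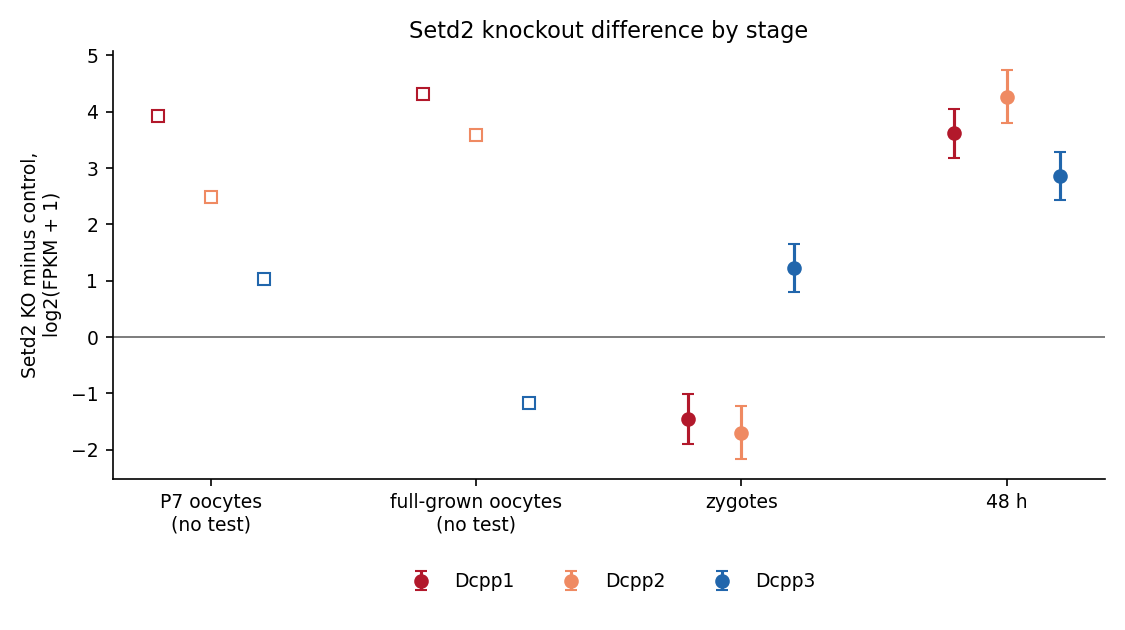
Difference between Setd2 KO and control on the log2(FPKM + 1) scale for each Dcpp gene at 4 stages, as fitted and not set relative to the median of all genes, with open squares for the stages that chose the members, which carry no test, and filled points with bars of 1 SE from limma for zygotes and 48 h. Dcpp1 and Dcpp2 lie above 0 at P7, in full-grown oocytes and at 48 h and below 0 in zygotes, while Dcpp3 lies below 0 in full-grown oocytes and above 0 at the other stages.

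In spindle-transfer 8-cell embryos the Dcpp genes were all but undetected. Dcpp2 was at 0.724 FPKM in replicate 2 of the KO label, about 2.5 fragments, and all other values in these 4 libraries were listed at 0. No member reached the minimum for testing. Among the 9398 genes tested there limma called 0, and 1243 had an unadjusted p under 0.05.

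Set side by side across tables that were normalized separately, the summed level had a wide range. It was highest in KO P7 oocytes, at 79.4 to 89.7 FPKM. KO full-grown oocytes (45.9 to 56.2 FPKM) lay within the range of KO embryos at 48 h (23.5 to 65.3 FPKM), which also takes in the Dnmt3l pair (42.9 and 34.6 FPKM) and 1 of the 2 control full-grown libraries (15.3 to 32.8 FPKM). Control P7 oocytes followed at 10.3 to 14.8 FPKM, then control zygotes at 4.25 to 9.61 FPKM and KO zygotes at 2.07 to 3.91 FPKM. Control embryos at 48 h and both spindle-transfer groups had sums of at most 0.724 FPKM.

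The genes next to the Dcpp cluster were read for company. Of the genes within 8 places on either side in the RefSeq order, 10 are in the tables. On 1 side lie Prss21, Prss32, Prss41 and Prss33, which encode trypsin-like serine proteases, then Tceb2 (elongin B) and Srrm2, a protein of the spliceosome. On the other lie Sbp and Sbpl, relatives with the same lectin fold, then the proteases Prss30 and Prss22. Sbp reached at most 1.49 FPKM and Sbpl at most 0.329 FPKM in any library.

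Prss30 went the way of Dcpp1 and Dcpp2 in the table of 12 libraries. It was at 6.92 and 4.82 FPKM in KO full-grown oocytes, against 0.0647 and 0 FPKM in controls. In zygotes it was listed at 0 in both KO libraries and was at 1.45 and 0.689 FPKM in controls. At 48 h it was at 8.08 and 8.2 FPKM in KO embryos and listed at 0 in both controls. At P7, where Dcpp1 and Dcpp2 were also high in the KO, Prss30 was listed at 0 in all 4 libraries. In the Dnmt3l pair it was at 0.0703 FPKM under the KO label and 0.437 FPKM in the control, where Dcpp1 and Dcpp2 ran the other way.

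Prss30 fell by 1.02 in KO zygotes (SE 0.236, limma adjusted p = 0.00829), rose by 3.19 in the KO at 48 h (SE 0.236, limma adjusted p = 3.92e-07) and rose by 3.19 in the KO from zygote to 48 h (SE 0.236, limma adjusted p = 0.000423). Its size in the last contrast ranked 6th, 2 places after Dcpp2. The zygote call was lost without control zygote replicate 1 (-0.76, limma adjusted p = 0.0584). The other neighbours tested in that table moved otherwise. Prss33 rose by 1.12 at 48 h (SE 0.372, limma adjusted p = 0.0178), at 0.327 and 2.56 FPKM in KO embryos and 0 in both controls. The call was lost without either control (1.12). Prss33 reached 1 FPKM only in replicate 2 of KO zygotes (1.19 FPKM) and of KO embryos at 48 h, so it entered the test through KO libraries alone. Tceb2 rose by 2.92 in KO zygotes (SE 0.299, limma adjusted p = 0.000112) and fell by 3.68 in the KO at 48 h (SE 0.299, limma adjusted p = 8.43e-07), the opposite signs to Dcpp1 and Dcpp2. Srrm2 missed the threshold in zygotes (-0.81, limma adjusted p = 0.0513), which it passed after median-ratio rescaling (-0.85) and quantile normalization (-0.94) and without control zygote replicate 2 (-1.21), and at 48 h it was at -0.079 (limma adjusted p = 0.815). Of 13 serine protease genes of chromosome 17 in the tables, 2 were tested in the table of 12 libraries, Prss30 and Prss33, and 0 at P7. In P7 KO replicate 1 Prss27 was at 8.4 FPKM and the neighbour Prss22 at 1.11 FPKM. Both were listed at 0 in the other P7 libraries.

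**Figure D4:**
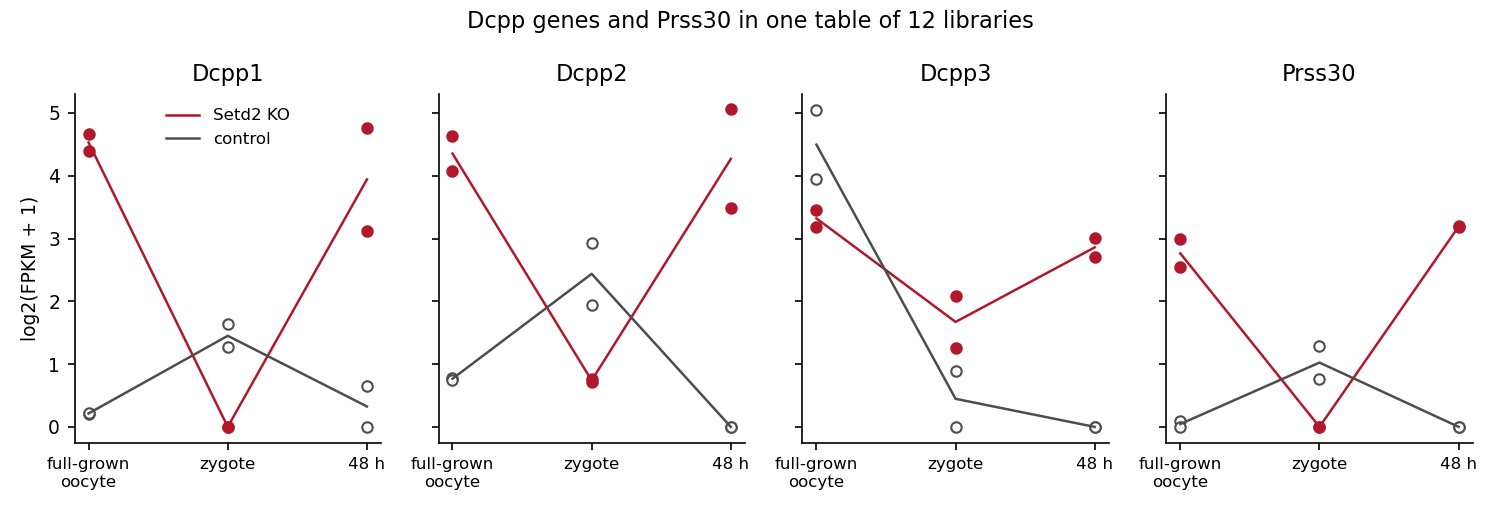
Level of Dcpp1, Dcpp2, Dcpp3 and Prss30 as log2(FPKM + 1) in full-grown oocytes, zygotes and 48 h embryos, with a point for each of the 12 libraries and lines through the group means of Setd2 KO and control. In the KO Dcpp1, Dcpp2 and Prss30 are high in oocytes, at or near 0 in zygotes and high at 48 h, whereas control Dcpp3 is high in oocytes, at 0.859 and 0 FPKM in zygotes and at 0 at 48 h.

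The genes whose course was most like the summed Dcpp level over these 12 libraries, by Pearson r of log2(FPKM + 1) among 9341 genes reaching 5 FPKM, were Dnajc5b (r = 0.941), a chaperone of the cysteine string family, Pcp4 (0.938), a calmodulin-binding peptide, Vmn1r112 (0.933), a pheromone receptor, Reg2 (0.924), a secreted protein of the regenerating family, and Hbq1a (0.916), a globin. Prss30 had r = 0.744 and ranked 679th. These r values are descriptions over libraries that share their groups. At P7 none of the 5 had the Dcpp difference, since Hbq1a was at 0.21 FPKM in 1 control and all other values of the 5 genes were listed at 0. Dnajc5b, for example, was at 21.7 and 22.2 FPKM in KO full-grown oocytes, against 18.5 and 12.5 FPKM in controls, and at 16.1 and 14.8 FPKM in KO embryos at 48 h, against 1.47 and 2.58 FPKM in controls.

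Other genes of salivary secretion were read in the same oocytes. Of a list of 40 such genes, 38 are in the tables. At P7 4 were tested and 0 passed in either direction (median -0.093, against -0.042 over all genes), and in full-grown oocytes 8 were tested and 0 passed (median 0.41, against -0.19). Of all genes tested, limma called 0.0834% at P7 and 6.92% in full-grown oocytes, so few calls would be found among 4 or 8 genes at these shares. Their summed FPKM was 77.9 to 86.9 in KO and 85.6 to 90.4 in control P7 oocytes, and 40.6 to 60.8 in KO and 46.5 to 62.9 in control full-grown oocytes. Most of that was Tcn2, the plasma carrier of vitamin B12, at 68.2 and 81.3 FPKM in KO and 82.3 and 73.2 FPKM in control P7 oocytes. In full-grown oocytes Tcn2 was at 22.2 and 40.6 FPKM in the KO and 33.4 and 50.2 FPKM in controls. Both KO libraries there lay above both controls for Amy1, Dmbt1, Kcnn4, Gpr39, Slc12a2, Creb3l1 and Chrm3, and below both for Egf and Muc19. All of these but Creb3l1 and Muc19, which were too low to be tested, were among the 8 tested. Over all genes tested these shares were 18.8% and 46.3%. The 8 genes thus lay above both controls more often than all genes did, and below both less often. Kcnn4, for example, was at 5.56 and 6.44 FPKM in the KO, against 3.76 and 3.04 FPKM in controls. The gland products Smgc, Pip, Prol1, Smr2, Tff2 and Bpifa1 were listed at 0 in all 22 libraries.

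In the embryo a few genes of that list passed. In zygotes Kcnn4, a calcium-gated potassium channel, rose by 1.55 and Slc12a2, the secretory chloride cotransporter, by 1.30, while Chrm3, a muscarinic receptor, fell by 0.93 (limma adjusted p = 0.0118, 0.0084 and 0.0249). Without control zygote replicate 2 none of these calls held (0.97, 0.89 and -0.56), without KO zygote replicate 2 neither Kcnn4 (1.09) nor Chrm3 (-0.94) passed, and without KO zygote replicate 1 Chrm3 did not (-0.92). These are 2 higher and 1 lower of 8 tested, beside 18.5% and 13.1% of all genes. At 48 h 4 of 8 were higher in the KO and 1 was lower, beside 43.2% and 30.6% of all genes. Tcn2 rose by 3.98, Kcnn4 by 2.54, Egf, the growth factor first found in the submandibular gland, by 2.23 and Dmbt1, the salivary agglutinin, by 1.57, and Slc12a2 fell by 2.99 (limma adjusted p of 0.000688 for Dmbt1 and smaller for the others). In the KO step from zygote to 48 h, where Dcpp1 and Dcpp2 rose, 0 of the 8 passed in either direction (median 0.15, against 0.019 over all genes). Zg16, a lectin of the same fold family, was lower in KO P7 oocytes, at 1.08 and 2.74 FPKM against 4.09 and 5.05 FPKM in controls, and 0 of the 3 listed lectin relatives in the tables passed in any contrast, with at most 1 of them tested in each.

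Markers of the oviduct, another source of Dcpp RNA, were read beside these values. Of 18 listed 16 are in the tables. Their summed FPKM was 120 to 123 in KO and 130 to 140 in control P7 oocytes, where Epcam, an adhesion protein of germ cells and many epithelia, was at 116 and 119 FPKM in the KO and 138 and 128 FPKM in controls. In full-grown oocytes the sum was 9.46 to 12.2 FPKM in the KO and 8.81 to 12.2 FPKM in controls. In zygotes it was 7.63 to 12.4 FPKM in the KO and 5.98 to 6.25 FPKM in controls. At 48 h it was 12.3 to 13.5 FPKM in the KO and 68.5 to 73.1 FPKM in controls. Most of the control sum was Epcam, at 64.7 and 63.4 FPKM, against 2.7 and 3.55 FPKM in the KO. Limma called 1 of 4 tested higher there, Tppp3 (1.51), and 2 lower, Epcam (-3.99) and Ovgp1 (-1.27), beside 43.2% and 30.6% of all genes. Tppp3 was at 10.1 and 5.51 FPKM in the KO, against 1.68 and 2.31 FPKM in controls. Ovgp1, the oviduct glycoprotein that defines the secretory cells, was at 0 in both KO and at 0.382 and 0 FPKM in control P7 oocytes, and at 0.0658 and 0.0622 FPKM in KO and 0.0876 and 0.251 FPKM in control full-grown oocytes. Other members of the list were higher in single KO libraries. In P7 oocytes Tekt1, a protein of cilia, was at 3.11 and 0.423 FPKM in the KO, against 0.614 and 0.28 FPKM in controls. Krt7, an epithelial keratin, was at 1.35 and 0.123 FPKM in the KO, against 0.214 and 0.122 FPKM in controls, and Msln at 1.63 and 0 FPKM in the KO and 0 in both controls. From 2 to 4 of the 16 reached 1 FPKM in KO P7 libraries, and 1 to 2 in controls. In full-grown oocytes Wfdc2 was at 0.524 and 0.147 FPKM and Pax8 at 0.129 and 0.183 FPKM in the KO, and both were listed at 0 in controls. Tppp3 went the other way there, at 1.83 and 2.32 FPKM in the KO, against 4.07 and 3.52 FPKM in controls. Lgr5 was also lower, at 0.0225 and 0.0479 FPKM in the KO, against 0.072 and 0.0642 FPKM in controls. So was Krt7, at 0 and 0.0525 FPKM in the KO, against 0.0888 and 0.0709 FPKM in controls. The part of oviduct RNA in the Dcpp values was not tested.

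Summed FPKM of 16 granulosa and cumulus markers was 1.88 to 2.31 in KO and 1.82 to 5.84 in control P7 oocytes, and 37.0 to 41.9 in KO and 40.7 to 44.8 in control full-grown oocytes. In the Dnmt3l pair it was 32.0 FPKM under the KO label and 88.4 FPKM in the control. The near-equal sums of full-grown Setd2 oocytes hold opposite moves, with 3 of 7 tested called lower and 1 called higher by limma. Of all 12199 genes tested there, 597 were called lower and 247 higher, together 6.92%. Inha, the inhibin subunit, was at 0.816 and 0.519 FPKM in KO full-grown oocytes, against 14.8 and 15.1 FPKM in controls. Hsd3b1, a steroid dehydrogenase, was listed at 0 in the KO, against 4.95 and 4.03 FPKM in controls. Cyp11a1, which starts steroid synthesis, was at 0.293 and 0.323 FPKM in the KO, against 3.2 and 2.37 FPKM in controls. Fshr, the receptor of follicle-stimulating hormone, was at 9.49 and 8.25 FPKM in the KO, against 0.415 and 0.18 FPKM in controls. Cyp19a1, the aromatase, was at 23.4 and 19.6 FPKM in the KO, against 15.4 and 13.6 FPKM in controls. The part of these shifts in the Dcpp values was not tested. At 48 h the sum was 29.7 to 32.9 in the KO and 34.9 to 37.6 in controls, again with opposite moves. The listed marker Nr5a2 was at 7.79 and 8.25 FPKM in the KO, against 33.9 and 36.8 FPKM in controls. Cyp19a1 was at 15.1 and 10.6 FPKM in the KO, against 0 and 0.218 FPKM in controls. Limma called 3 of 7 tested higher and 1 lower, beside 43.2% and 30.6% of all genes. In zygotes the sum was 31.5 to 34.1 in the KO and 19.1 to 25.8 in controls. There 3 of 7 tested were called higher and 0 lower, beside 18.5% and 13.1% of all genes. In zygotes the sums of oocyte markers also stood apart, at 20680 to 21420 FPKM in the KO and 9255 to 10490 FPKM in controls, with 9 of 17 tested called higher and 1 lower, beside 18.5% and 13.1% of all genes. The part of this shift in the zygote values of the Dcpp genes was not tested.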

How the data were processed

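The authors deposited FPKM values for 22592 gene symbols in 4 tables, and per the submitters' processing notes the tools were Cufflinks 2.0.2 and TopHat2 2.0.11, with the build mm9. Values were used as deposited, with no rescaling in the reported results. Tables were made separately, so tests stayed within a table. Libraries were grouped by title.

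Values were taken as log2(FPKM + 1), which understates changes of low genes. A gene entered a table's test if 2 or more of its libraries held 1 FPKM or more. The test was limma 3.58.1 under R 4.3.3, with group means, a variance trend and two-sided p-values adjusted by Benjamini-Hochberg over all genes, called at 0.05. All 12 libraries of full-grown oocytes, zygotes and 48 h embryos shared 1 fit. The procedure was tested on simulated data.

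Approximate fragments came from the most common low value of FPKM times transcript length in 3708 genes with a single transcript. This assumes that the most common low value is 1 fragment. Counting intervals need counts and are not given. None of 18 housekeeping genes was listed at 0.

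Sequences were aligned with mafft 7.526. Members and gene lists were chosen with earlier results of these data known. Named genes are the members, neighbours within 8 places and the 5 of most like course. Amd1, Amd2 and Scimp were named after their values were seen. List members are named where limma called them, where they define a list or where KO and control libraries differed.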

Additional observations from a re-analysis of the deposited data

Results flagged for a closer look

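The Setd2 effect differed between stages, which is why the following values are set out. The KO effect at 48 h minus that in zygotes was 5.07 for Dcpp1, 5.97 for Dcpp2, 1.63 for Dcpp3 and 4.22 for Prss30, each called by limma. The same difference was -6.60 for Tceb2. It was 3.33 for Dnajc5b, 2.95 for Pcp4, 3.92 for Vmn1r112, 2.45 for Reg2 and 2.67 for Hbq1a. Those genes were picked for likeness to the summed Dcpp level over the same libraries. A difference in the direction of Dcpp1 and Dcpp2 was therefore built into that choice. Among genes of salivary secretion it was 4.26 for Tcn2, 2.06 for Egf and -4.29 for Slc12a2.

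Between other stages every KO library lay on one side of the controls at one stage and on the opposite side at another, and these differences were not tested. Dcpp1 and Dcpp2 were above controls at P7 and in full-grown oocytes and below them in zygotes (log2 differences of -1.45 and -1.70 there). Dcpp3 was above controls at P7, below them in full-grown oocytes (-1.18) and above them in zygotes (1.23). Prss30 was above controls in full-grown oocytes and below them in zygotes (-1.02).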

How the results depend on the processing

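The 48 h effects of all 3 members and the differences between stages of Dcpp1 and Dcpp2 stayed on their side of the threshold under every alternative run for them, as did the Dcpp2 fall in controls. With a pseudocount of 5 the zygote effects did not pass, at -0.43, -0.75 and 0.42 for Dcpp1, Dcpp2 and Dcpp3. The KO step did not pass there either, at 1.99 for Dcpp1 and 2.07 for Dcpp2, with 9 genes called. The control step of Dcpp1 was -0.35 and the stage difference of Dcpp3 0.75. With no filter on low values the changes kept their size, while more genes were adjusted for and the variance trend was refitted. There the zygote effects (-1.45, -1.70 and 1.23) and the KO step of Dcpp2 (3.53) lost their calls. So did the control step of Dcpp1 (-1.13) and the stage difference of Dcpp3 (1.63). The KO step called 40 genes. Median-ratio rescaling and quantile normalization ended the zygote call of Dcpp3 (1.15 and 1.11) and the control call of Dcpp1 (-0.99 and -1.02). Fitted on the compared groups alone, the KO step called 5 genes and neither Dcpp1 (3.94) nor Dcpp2 (3.53). The cause of these lost calls was not tested.

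Leaving out 1 library gave zygote effects from -1.64 to -1.27 (Dcpp1), -2.19 to -1.20 (Dcpp2) and 0.78 to 1.67 (Dcpp3). Over such fits the KO step of Dcpp2 ran from 2.74 to 4.32, the control step of Dcpp1 from -1.45 to -0.80 and the stage difference of Dcpp3 from 1.19 to 2.08. Calls ran from 2256 to 3935 in zygotes, from 11 to 172 in the KO step and from 0 to 49 in spindle-transfer embryos.

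Replicate numbers were not used as pairs in the main fits. The correlation of same-numbered libraries was 0.0416 at P7, 0.186 for full-grown oocytes, 0.0742 for zygotes, 0.00244 for 48 h embryos and 0.0724 in spindle-transfer embryos. These values do not settle whether same-numbered libraries were paired. With the replicate block the zygote effect of Dcpp1 (-1.45, limma adjusted p = 0.0621), its control step (-1.13, limma adjusted p = 0.0705) and the KO step of Dcpp1 and Dcpp2 (3.94 and 3.53, limma adjusted p = 0.126 each) did not pass, the KO step called 4 genes and the spindle-transfer contrast 15.

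Untested differences moved with the pseudocount. At P7 Dcpp1 was 4.92 with 0.1 and 2.48 with 5, Dcpp2 2.05 with 5 and Dcpp3 0.65 with 5. In full-grown oocytes Dcpp1 was 6.42 with 0.1, 2.39 with 5 and 4.50 after quantile normalization, and Dcpp2 4.61 with 0.1 and 2.10 with 5. Among other named genes, a pseudocount of 5 ended the zygote call of Prss30 (-0.28), and testing with no filter ended those of Chrm3 in zygotes (-0.93) and Prss33 at 48 h (1.12). Srrm2 in zygotes passed with a pseudocount of 5 (-0.53), a filter at 5 FPKM (-0.81) and no variance trend (-0.81), beside the 3 settings named with its value. Srrm2 at 48 h, which did not pass, ran from -0.23 without control replicate 2 to 0.068 without control replicate 1.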
